A study of Rattus norvegicus with 36 samples.

Results

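The livers of rats given 959 mg/kg of decabromodiphenyl ether (decaBDE) each day were compared with those of rats given the vehicle. This is the highest of the 5 doses in the series. The comparison rests on 12 of the 36 arrays, the 6 whose titles carry the dose 959 and the 6 whose titles carry the vehicle, and on the 31042 probe sets that are not array controls. All groups were male Harlan Sprague Dawley rats, 7 weeks old at the start, dosed by gavage in 5 ml/kg corn oil on 5 days running, with the left liver lobe taken 1 day after the last dose. The 959 mg/kg group received decaBDE in the oil, and the vehicle group received the oil alone. The 4 lower doses, 0.1 and 0.959 mg/kg as well as 9.59 and 95.9 mg/kg, with 6 arrays each, are used for the spread of each probe set and for the values at lower doses. Titles number the arrays of a group from 1 to 6 without saying outright that each came from its own rat, so p-values measure the spread between arrays.

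DecaBDE is a brominated flame retardant. The liver senses such chemicals through receptors that switch on genes for their removal. The aryl hydrocarbon receptor (AhR) is a ligand-activated transcription factor whose classic target is Cyp1a1. The receptors CAR and PXR drive the Cyp2b and Cyp3a enzymes, conjugating enzymes and export pumps. Phase I enzymes, mostly cytochromes P450, oxidise a compound with electrons passed on by the reductase Por, phase II enzymes attach a sugar acid or glutathione to it, and transporters move the product out of the hepatocyte.

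The values are log2 signals, so a difference of 1 is a 2-fold change, and each probe set can be compared only with itself. Any pair of arrays correlated at 0.988 to 0.996 (Pearson's r over probe sets, which are not independent). Replicate 6 of 0.1 mg/kg, which enters the spread of each probe set, had the lowest mean correlation with the other arrays (0.991). Among the 959 mg/kg arrays, replicate 1 stood apart, scoring 10.3 on the leading principal component (9.94% of the variance) where the others scored -13.3 to -7.3. Vehicle arrays scored -5.4 to 13.4, so replicate 1 lay within their range and the other 959 mg/kg arrays below it. Arrays of the lowest dose, 0.1 mg/kg, scored -28.3 to 22.7, so low scores were not particular to 959 mg/kg. Mean signals of the 11 measured hepatocyte markers were 13.55 to 13.68 on 959 mg/kg arrays and 13.56 to 13.70 on vehicle arrays, as the label of liver would have it. The 3' minus 5' difference of the actin control, which grows as RNA degrades, was 1.14 ± 0.0727 at 959 mg/kg and 1.16 ± 0.0504 in vehicle (SD, n = 6 each; exact permutation test over arrays, two-sided, p = 0.58).

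At 959 mg/kg, 34 of 31042 probe sets differed from vehicle (limma, adjusted p under 0.05), 0.11% of those tested. Of these, 32 were higher (0.103%) and 2 lower (0.00644%). Taken once per gene, 24 of 14217 were higher (0.169%) and 1 lower (0.00703%), 0.176% in all. The 24 genes were led by Cyp1a1 and the export pump gene Abcc3, which with a probe set of the Cyp2b subfamily were the 3 that changed 2-fold or more. At the other end, 17 of the 34 changed by less than 0.5 on the log2 scale. All 6 arrays lay beyond every vehicle array for 25 of the 34, where 0.283% of all probe sets showed such a gap upward and 0.161% downward (0.445% in all), and 5 of 6 arrays did for the other 9. An unadjusted p under 0.05 was reached by 1888 probe sets (6.08%), 1103 higher and 785 lower. Leaving out 959 mg/kg replicate 1 or replicate 2 raised the count to 38. The calls that held in every alternative run were those of Cyp1a1, Cyp1a2, the Cyp2b-subfamily probe set, Cyp3a23-3a1, Cyp2c6v1, Ces2c, Ugt2b1, Abcc3, Cndp2, both Mmgt1 probe sets and 1 of Vav2. Every other call, such as those of Por, Cyb5a, Ephx1, Gsta4, Tex2 and Stbd1, ended in a fit of these 12 arrays alone. That fit called 13 probe sets, 12 of them among the 34. Leaving out 959 mg/kg replicate 3 or vehicle replicate 3 left 22.

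**Figure D1:**
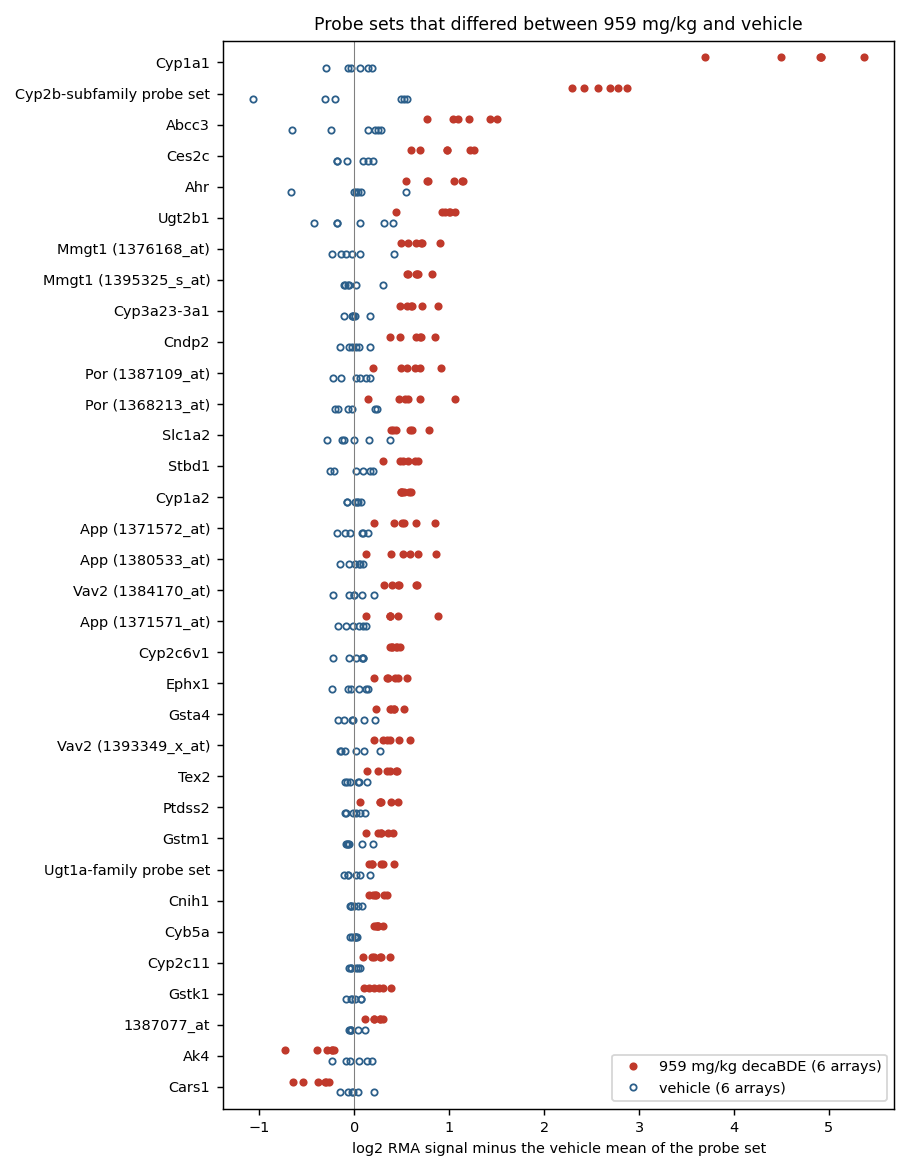
Log2 RMA signal of the 34 probe sets that differed at 959 mg/kg, minus the vehicle mean of that probe set (horizontal axis, log2 units), with filled points for the 6 arrays of 959 mg/kg and open points for the 6 of vehicle. On every 959 mg/kg array Cyp1a1 stands farthest above its vehicle mean, the Cyp2b-subfamily probe set comes next, and most others lie less than 1 from theirs.

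**Figure D2:**
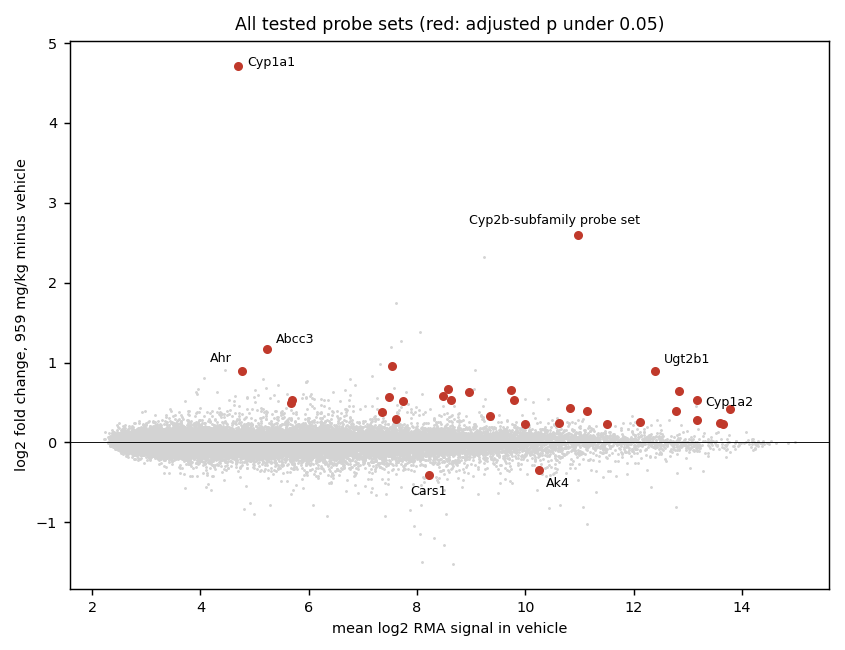
Log2 fold change, 959 mg/kg minus vehicle (vertical axis), against the mean log2 signal in vehicle (horizontal axis) for all 31042 tested probe sets, in grey, with the 34 that passed in red. Cyp1a1 starts below the median level of all probe sets (5.16) and reaches the largest change of those that passed, 4.72, whereas Cyp1a2 starts at 13.16 and changes by 0.53.

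The AhR target Cyp1a1, a P450 that is almost silent in unexposed liver, had the largest rise of the genes that passed. Signals were 8.39 at the lowest, 9.60 at the median and 10.06 at the highest on 959 mg/kg arrays, against 4.40, 4.71 and 4.88 on vehicle arrays. The groups were far apart, since the lowest 959 mg/kg array (replicate 4) stood well above the highest vehicle array. Limma gave a 26.3-fold rise (log2 4.72, SE 0.222, adjusted p = 3.61e-17). Vehicle signals lay under the median level of all probe sets, where RMA compresses differences, and the files hold no detection calls. In tissue RNA, more RNA per cell and more cells of a kind cannot be told apart here or below.

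Cyp1a2, the form of the same subfamily that liver makes at all times, had 13.65, 13.67 and 13.76 as lowest, median and highest signal at 959 mg/kg and 13.08, 13.18 and 13.23 in vehicle. Its 959 mg/kg arrays were tightly grouped, with an SD of 0.045 (n = 6), and all of them exceeded every vehicle array. The rise was 1.44-fold (log2 0.53, SE 0.0539, adjusted p = 1.06e-07 by limma). The 250 bases upstream of its start in RefSeq (GRCr8, chr8:66978150-66978399, minus strand) are shown because Cyp1a2 and Cyp1a1 were the 2 genes that also differed from the next lower dose. Capitals mark a TATAAA box that begins 39 bases before the start. The core of the AhR response element, GCGTG, was searched on both strands and was not in this window.
Cyp1a2: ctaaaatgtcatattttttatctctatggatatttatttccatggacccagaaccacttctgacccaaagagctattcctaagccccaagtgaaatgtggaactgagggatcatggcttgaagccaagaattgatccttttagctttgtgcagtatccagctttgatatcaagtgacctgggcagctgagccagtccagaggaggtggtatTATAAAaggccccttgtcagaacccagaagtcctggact

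Ahr, the receptor gene itself, rose on its brighter probe set. That probe set read 5.32, 5.69 and 5.92 (lowest, median, highest) at 959 mg/kg and 4.11, 4.8 and 5.32 in vehicle, with 5 of 6 arrays above every vehicle array. It rose by 0.90 (SE 0.18, adjusted p = 0.0191). A second Ahr probe set gave 0.10 (adjusted p = 0.95), so the rise is seen on 1 of 2. The call ended without vehicle replicate 3 or 5 or 959 mg/kg replicate 3, 4 or 5 (highest adjusted p 0.0921) and in the fit of the 12 arrays alone.

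Nqo1, a quinone reductase under the control of both AhR and NRF2, did not pass (log2 fold change 0.98, SE 0.218, adjusted p = 0.0575). Its 959 mg/kg arrays read 7.80, 7.99 and 9.98 (lowest, median, highest) and its vehicle arrays 6.97, 7.42 and 7.56. The groups did not overlap, but replicate 1 alone gave the 9.98, and the next highest array read 8.22. Without that replicate the log2 fold change was smaller, 0.65, and passed (adjusted p = 0.0268). It also passed without 959 mg/kg replicate 5 (1.09, adjusted p = 0.0359) or 6 (1.07, 0.0392), when probe sets under the median level were dropped (0.0372) and with 1 probe set per gene (0.0398). Of the 9 measured genes on the AhR list, 3 rose (Cyp1a1, Cyp1a2 and Ahr) and 0 fell, and 4 had an unadjusted p under 0.05. Over all genes, 0.169% rose, 0.00703% fell and 7.19% had an unadjusted p under 0.05. Other AhR genes were near 0. Log2 fold changes were 0.03 for Cyp1b1, a sister enzyme, 0.05 for Tiparp and -0.05 for Ahrr, which both restrain the receptor, and 0.00 for Aldh3a1, an aldehyde dehydrogenase (adjusted p from 0.963 to 0.999). The signs of the Cyp1b1, Tiparp and Aldh3a1 values turned under some settings. The list's median was 0.045, against 0.004 over all genes, and became 0.162 without vehicle replicate 2, 0.166 without vehicle replicate 5 and 0.901 when members under the median level were dropped. That filter used the mean over all 36 arrays, with a median level of 5.16. Cyp1a1 (mean 5.76) and Ahr (5.29) cleared it only through dosed arrays, as their vehicle means were 4.69 and 4.78. The 0.901 therefore follows from the filter and is no support for a rise of the list.

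Among the enzymes that CAR and PXR control, a probe set that 2 Cyp2b genes share rose most. It read 13.25, 13.59 and 13.83 (lowest, median, highest) at 959 mg/kg and 9.90, 11.11 and 11.52 in vehicle. Vehicle arrays were spread widely, with an SD of 0.64, whereas the 959 mg/kg arrays had an SD of 0.22 (n = 6 each), and the groups did not overlap. The rise was 6.06-fold (log2 2.60, SE 0.177, adjusted p = 2.18e-12). The probe set cannot tell the 2 genes apart.

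Cyp3a23-3a1, a Cyp3a enzyme that PXR induces in rat liver, read 13.32, 13.43 and 13.72 at 959 mg/kg and 12.73, 12.82 and 13.00 in vehicle (lowest, median, highest). No 959 mg/kg array reached down to the vehicle range. It rose by 0.64 (SE 0.0651, adjusted p = 1.06e-07). Its upstream 250 bases (RefSeq GRCr8, chr12:14398804-14399053, minus strand) are shown for the direct repeat AGTTCANNNAGTTCA, the kind of element PXR binds. The repeat was sought on both strands and lies on the opposite one, reading as the capitals, 144 bases before the start. This motif and TATAAA were picked after the sequences were read. The repeat is in 1 of the 20 matched promoters of higher genes (5.0%) and in 2 of 11733 promoters of genes on the array (0.017%). That 1 is Cyp3a23-3a1 itself, so these shares test nothing.
Cyp3a23-3a1: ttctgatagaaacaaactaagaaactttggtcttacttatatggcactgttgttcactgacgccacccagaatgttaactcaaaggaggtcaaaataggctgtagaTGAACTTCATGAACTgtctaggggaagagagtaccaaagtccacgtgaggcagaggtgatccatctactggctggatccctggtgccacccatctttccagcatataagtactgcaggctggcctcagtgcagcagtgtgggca

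Other phase I genes rose too. Ces2c, a carboxylesterase, read 8.13, 8.51 and 8.79 at 959 mg/kg and 7.35, 7.54 and 7.73 in vehicle (log2 fold change 0.95, SE 0.119, adjusted p = 7.81e-06). Cyp2c6v1, a P450 of the Cyp2c subfamily, read 14.16, 14.20 and 14.26 at 959 mg/kg and 13.56, 13.83 and 13.87 in vehicle (0.42, SE 0.0462, adjusted p = 4.5e-07). Both had every 959 mg/kg array above every vehicle array, and both calls held in all alternatives run. Ephx1, the microsomal epoxide hydrolase, rose by 0.39 (12.99 to 13.34 on 959 mg/kg arrays, 12.55 to 12.93 on vehicle arrays, adjusted p = 0.00504). Cyp2c11, the main P450 of male rat liver, rose by 0.24 (13.74 to 14.03 at 959 mg/kg, 13.60 to 13.71 in vehicle, adjusted p = 0.0163). Its call ended without vehicle replicate 3 or 5 or 959 mg/kg replicate 3, 4 or 5 (highest adjusted p 0.0853).

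Of the 14 measured phase I genes, 6 rose and 0 fell, and 9 had an unadjusted p under 0.05, where 0.169% of all genes rose and 7.19% had such a p. The 6 were Cyp3a23-3a1, Cyp2c6v1, Ces2c, Por, Ephx1 and Cyp2c11. Their list had a median log2 fold change of 0.283, against 0.004 over all genes, with 7385 of 14217 genes above 0. Members were listed with earlier results of these data known, so the count describes the list and tests nothing. Cyp3a2, another Cyp3a enzyme of male rats, did not pass (0.13, adjusted p = 0.349), although its 959 mg/kg arrays, at 14.15 to 14.30, all exceeded the vehicle arrays, at 14.01 to 14.14. The largest change on the list belonged to Cyp3a9, named after its value was seen, at 1.39 with an adjusted p = 0.0723, and 4 of 6 arrays above every vehicle array.

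P450 enzymes need electrons and heme. Por, the reductase that passes electrons from NADPH to every microsomal P450, rose on both of its probe sets. The brighter one read 8.68, 9.08 and 9.40 at 959 mg/kg and 8.26, 8.52 and 8.65 in vehicle (lowest, median, highest), a rise of 0.58 (SE 0.103, adjusted p = 0.00473). The other gave 0.57 (SE 0.108, adjusted p = 0.00923), with 5 of 6 arrays above every vehicle array. Por had 3 GCGTG cores in its upstream 250 bases (RefSeq GRCr8, chr12:26635810-26636059, minus strand), in capitals at 249, 220 and 71 bases before the start, the last on the opposite strand. A core was present in 42.0% of 11733 promoters of genes on the array and in 30.0% of the 20 higher genes with a promoter. Cyp1a1 has no promoter in this set and is not among the 20. Whether AhR acts on these cores was not tested.
Por: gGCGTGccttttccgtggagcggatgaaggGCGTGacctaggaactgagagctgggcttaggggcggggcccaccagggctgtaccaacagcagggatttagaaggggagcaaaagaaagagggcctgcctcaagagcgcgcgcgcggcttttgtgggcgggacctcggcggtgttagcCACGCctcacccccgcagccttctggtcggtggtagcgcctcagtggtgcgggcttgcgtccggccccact

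Cyb5a, cytochrome b5, a second electron donor, moved little but evenly. It read 13.80, 13.83 and 13.89 at 959 mg/kg and 13.55, 13.60 and 13.62 in vehicle, without overlap (log2 fold change 0.24, SE 0.0336, adjusted p = 5.31e-05). Alas1, the rate-limiting enzyme of heme synthesis, had 0.55 but overlapping groups, with medians of 11.06 at 959 mg/kg and 10.44 in vehicle, and did not pass (SE 0.178, adjusted p = 0.478). Of the 12 genes on the heme and electron list, 2 rose, Por and Cyb5a, and 0 fell (median 0.07), and 4 had an unadjusted p under 0.05, against 7.19% of all genes.

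Among conjugating enzymes, Ugt2b1, a glucuronosyltransferase, changed most. Its signals were 12.83, 13.36 and 13.45 at 959 mg/kg and 11.96, 12.33 and 12.79 in vehicle (lowest, median, highest). The lowest 959 mg/kg array, replicate 2, stood apart from the other five but still above the vehicle range. It rose by 0.90 (SE 0.118, adjusted p = 1.94e-05). A probe set that 8 Ugt1a genes share rose by 0.26 (medians 12.35 at 959 mg/kg and 12.09 in vehicle, adjusted p = 0.0346). That call ended when any 1 of 7 arrays was left out, which were 959 mg/kg replicates 1, 5 and 6 and vehicle replicates 1, 3, 5 and 6 (highest adjusted p 0.153), and with the replicate number as a block.

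Glutathione transferases made up the rest of this group. Gsta4, which handles products of lipid peroxidation, read 11.37, 11.53 and 11.66 at 959 mg/kg and 10.97, 11.12 and 11.35 in vehicle (0.39, SE 0.073, adjusted p = 0.00923). Gstm1, a cytosolic form, rose by 0.28 (13.30 to 13.58 at 959 mg/kg, 13.08 to 13.37 in vehicle, adjusted p = 0.0434). Gstk1, the form of mitochondria and peroxisomes, lies outside the rule for named genes and was picked after its value was seen. It rose by 0.24 (adjusted p = 0.0224). The Gstm1 call ended without any of vehicle replicates 1 to 5 or 959 mg/kg replicates 1, 3, 4, 5 and 6 (highest adjusted p 0.153) and with the replicate number as a block. It also ended after a second quantile normalization. The Gstk1 call ended without vehicle replicate 2, 3 or 5 or 959 mg/kg replicate 2, 3 or 4 (highest 0.117).

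Of the 14 measured phase II genes, 3 rose (Ugt2b1, Gsta4 and Gstm1) and 0 fell, with a median of 0.252, and 9 had an unadjusted p under 0.05 (0.169% and 7.19% of all genes for rises and for such a p). Gsta4 also held 3 GCGTG cores in its upstream 250 bases (RefSeq GRCr8, chr8:87947015-87947264, plus strand), in capitals. One is 73 bases before the start, and those at 86 and 210 bases are on the opposite strand. The core was present in 6 of the 20 higher genes with a RefSeq promoter (30.0%, exact 95% interval 11.9 to 54.3%) and in 42.0% of 11733 promoters of genes on the array. The 6 were Cndp2, Gsta4, Por, Ptdss2, Slc1a2 and Tex2. The 20 leave out Cyp1a1, which rose most of the genes that passed, because its promoter was not available. TATAAA was present in 3 of the same 20 (Cyp1a2, Cyp2c11 and Gstm1) and in 8.63% of the 11733.
Gsta4: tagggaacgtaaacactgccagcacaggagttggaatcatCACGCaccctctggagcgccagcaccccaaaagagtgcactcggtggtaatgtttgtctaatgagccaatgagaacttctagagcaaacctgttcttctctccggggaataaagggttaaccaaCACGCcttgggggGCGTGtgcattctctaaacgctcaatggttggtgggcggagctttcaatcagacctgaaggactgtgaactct

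Abcc3, which pumps conjugates from the hepatocyte into the blood, was the only transporter of 9 measured to pass. It read 6.00, 6.38 and 6.74 at 959 mg/kg and 4.58, 5.41 and 5.52 in vehicle, with no overlap. The rise was 2.25-fold (log2 1.17, SE 0.183, adjusted p = 0.000551). Abcc2, which pumps conjugates into bile, had 0.26 (10.38 to 10.64 at 959 mg/kg, 10.05 to 10.62 in vehicle, adjusted p = 0.523). The list's median was 0.059, and 2 members had an unadjusted p under 0.05, against 7.19% of all genes. The genes that encode CAR and PXR did not pass themselves, and whether the receptors were active was not tested. Nr1i3, which encodes CAR, had 0.42 (7.89 to 8.62 at 959 mg/kg, 6.92 to 8.39 in vehicle, adjusted p = 0.782), and Nr1i2, which encodes PXR, had -0.01 (adjusted p = 0.994).

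Genes outside drug metabolism rose as well. Mmgt1, which encodes a small membrane protein of the endoplasmic reticulum, rose on both of its probe sets. They read 9.05, 9.23 and 9.46 at 959 mg/kg against 8.33, 8.51 and 8.98 in vehicle (0.67, SE 0.0938, adjusted p = 7.13e-05), and 10.28, 10.39 and 10.55 at 959 mg/kg against 9.62, 9.67 and 10.03 in vehicle (0.66, SE 0.0737, adjusted p = 7.64e-07). On both, every 959 mg/kg array exceeded every vehicle array. Cndp2, a cytosolic dipeptidase, read 9.33, 9.63 and 9.81 at 959 mg/kg and 8.81, 8.95 and 9.12 in vehicle (0.63, SE 0.0741, adjusted p = 2.18e-06). These calls held in all alternatives run.

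Stbd1, which binds glycogen, rose by 0.53 (10.09 to 10.46 at 959 mg/kg, 9.53 to 9.98 in vehicle, adjusted p = 0.00369). App, the amyloid precursor protein, rose on 3 probe sets, by 0.53 (adjusted p = 0.00382), 0.52 (0.0124) and 0.43 (0.0434). The brightest is the last of these, and it read 10.95 to 11.71 at 959 mg/kg and 10.66 to 10.95 in vehicle. Vav2 rose on 2 of its 4 probe sets, by 0.49 (adjusted p = 0.00923) and 0.38 (0.0207). The other two gave 0.42 (adjusted p = 0.0695) and 0.35 (0.111). The App call at 0.43 ended without any of vehicle replicates 1 and 3 to 6 or 959 mg/kg replicates 1 and 3 to 6 (highest adjusted p 0.145), that at 0.52 without 959 mg/kg replicate 5 (0.0739), and the Vav2 call at 0.38 without vehicle or 959 mg/kg replicate 3, 5 or 6 (highest 0.0881). With the replicate number as a block, the 0.43 and the 0.38 no longer passed. The App call at 0.43 also ended after a second quantile normalization and without variance moderation.

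The remaining rises were as follows. Tex2 had 9.47 to 9.79 at 959 mg/kg and 9.24 to 9.47 in vehicle (0.33, adjusted p = 0.00667). Ptdss2, a phosphatidylserine synthase, had 7.67 to 8.07 at 959 mg/kg and 7.51 to 7.72 in vehicle (0.29, adjusted p = 0.0124). Cnih1, an export receptor of the endoplasmic reticulum, is outside the rule for named genes and was picked after its value was seen (0.25, adjusted p = 0.0294). One further probe set, shared by several genes and so given no name, rose by 0.23 (adjusted p = 0.0266). Slc1a2, a glutamate transporter of hepatocytes around the central vein, had 6.07 to 6.47 at 959 mg/kg and 5.40 to 6.06 in vehicle (0.53, adjusted p = 0.0488).

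The Slc1a2 call ended when any array but vehicle replicate 1 was left out (highest adjusted p 0.192) and with the replicate number as a block, and its dimmer probe set gave -0.05. This call also ended when each array's median was subtracted and without variance moderation. That of Ptdss2 ended without vehicle or 959 mg/kg replicate 3 or 4 (highest 0.0671), and its 2 dimmer probe sets gave 0.12 and 0.14. Cnih1 lost its call without vehicle replicate 1, 3, 5 or 6 or 959 mg/kg replicate 3, 4 or 6 (highest 0.124), and the unnamed probe set without vehicle replicate 1, 3, 5 or 6 or 959 mg/kg replicate 2, 3 or 5 (highest 0.0887).

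Only 2 probe sets fell. Ak4, an adenylate kinase of mitochondria, read 9.52, 9.99 and 10.03 at 959 mg/kg and 10.01, 10.25 and 10.43 in vehicle, and 5 of 6 arrays lay below every vehicle array. It fell by 0.35 on the log2 scale (SE 0.0735, adjusted p = 0.0331), and a dimmer probe set gave -0.41 (adjusted p = 0.314). Cars1, the cysteinyl-tRNA synthetase, passed on a probe set that is not its brightest, so it falls outside the rule for named genes. That one read 7.57, 7.87 and 7.94 at 959 mg/kg and 8.06, 8.20 and 8.42 in vehicle, without overlap, and fell by 0.41 (SE 0.0766, adjusted p = 0.00923). Its other 3 probe sets gave -0.44, -0.36 and -0.20 (adjusted p from 0.0723 to 0.636). The Ak4 call ended without vehicle replicate 1, 2, 3 or 4 or 959 mg/kg replicate 2, 3 or 5 (highest adjusted p 0.138), and that of Cars1 without 959 mg/kg replicate 3 or 4 (highest 0.0523). Ak4 also lost its call when each array's median was subtracted and in the fit of the 12 arrays alone (highest adjusted p 0.448). Cars1 lost its call in that fit too (0.12).

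Just outside the threshold stood Acyp1, an acylphosphatase (0.42, adjusted p = 0.0507), Pemt, which makes phosphatidylcholine by methylation (-0.24, adjusted p = 0.0557), Nqo1 (0.0575), Mnd1 (0.49, 0.0575) and Parp1, a DNA repair enzyme (0.27, 0.0584). Just inside it were Slc1a2 (0.0488) and the App and Gstm1 probe sets at 0.0434. Pemt read 11.33 to 11.56 at 959 mg/kg and 11.56 to 11.78 in vehicle, and all 6 arrays lay below every vehicle array. Cyp4a3, a fatty acid hydroxylase, read 11.38 to 11.60 at 959 mg/kg and 11.69 to 12.32 in vehicle (-0.39, adjusted p = 0.0795), also without overlap. Acot3, a thioesterase of peroxisomes, had -0.42 (adjusted p = 0.111), and Pik3ap1, a signalling adaptor, -0.28 (adjusted p = 0.166).

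The step from 95.9 to 959 mg/kg was tested on its own. Here 2 of 31042 probe sets passed (0.00644%), both higher at 959 mg/kg, and 0 passed as lower, with 1483 (4.78%) at an unadjusted p under 0.05. They were the 2 AhR enzymes. Cyp1a1 read 8.39, 9.60 and 10.06 at 959 mg/kg and 5.37, 6.32 and 7.26 at 95.9 mg/kg, a further log2 difference of 3.09 (95% interval 2.64 to 3.54, adjusted p = 2.25e-11). Cyp1a2 read 13.65, 13.67 and 13.76 at 959 mg/kg and 13.16, 13.38 and 13.54 at 95.9 mg/kg, a difference of 0.32 (0.21 to 0.43, adjusted p = 0.0121). For both, the arrays of these doses did not overlap. Cyp1a1 passed in all alternatives run. Cyp1a2 no longer passed without 95.9 mg/kg replicate 1, 2 or 5 or 959 mg/kg replicate 1 or 2 (adjusted p from 0.0556 to 0.0868), nor in the fit of those 12 arrays alone (0.905).

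For the enzymes of CAR and PXR, no difference between 959 and 95.9 mg/kg was detected. The difference was 0.05 for the Cyp2b-subfamily probe set (95% interval -0.31 to 0.41) and 0.05 for Cyp3a23-3a1 (-0.09 to 0.18). It was -0.01 for Ces2c (-0.25 to 0.23), -0.02 for Ugt2b1 (-0.26 to 0.22) and 0.09 for Abcc3 (-0.28 to 0.46). Adjusted p-values ran from 0.984 to 0.999; differences within these intervals cannot be told from 0. Por had 0.20 (-0.01 to 0.41) on its brighter probe set and 0.28 (0.06 to 0.50) on the other (adjusted p = 0.977 for each). Over the 32 other probe sets that differed from vehicle, the differences between 959 and 95.9 mg/kg ran from -0.17 (Cars1) to 0.28 (Por).

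**Figure D3:**
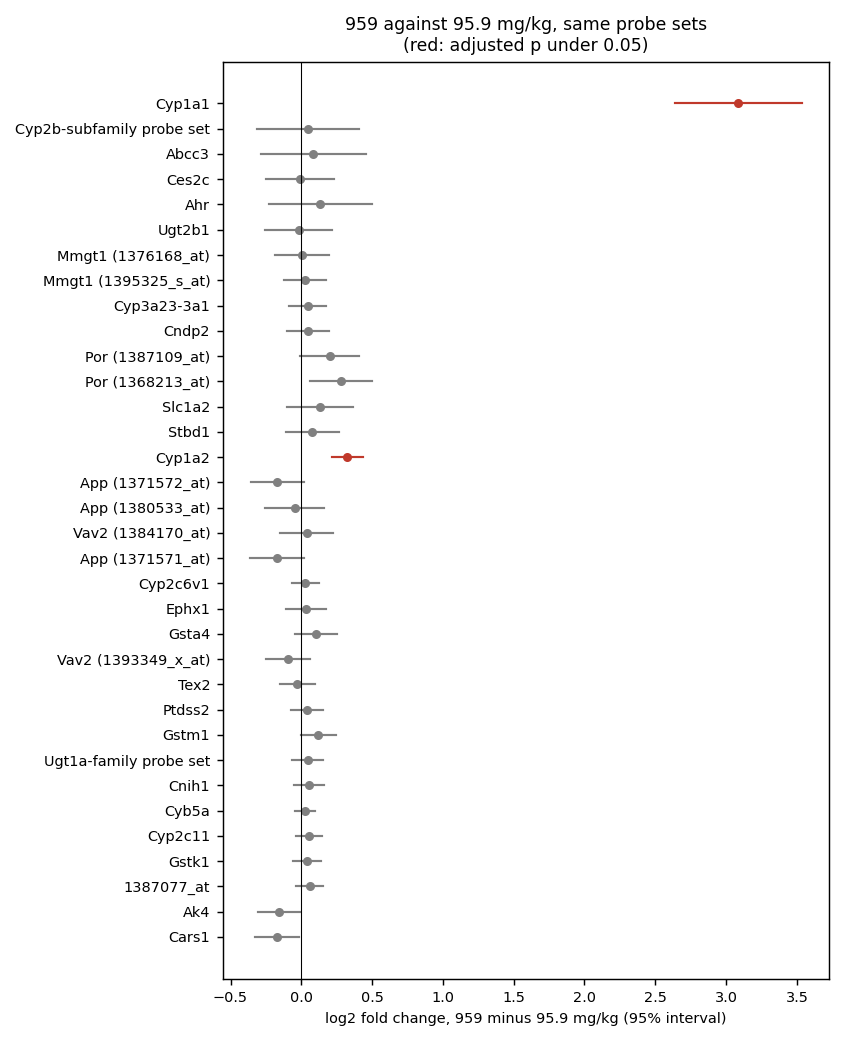
Log2 difference, 959 minus 95.9 mg/kg (horizontal axis), with 95% intervals from limma, for the 34 probe sets that differed between 959 mg/kg and vehicle. Cyp1a1 (3.09) and Cyp1a2 (0.32), in red, passed, and the others lie between -0.17 and 0.28.

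Set side by side, the dose series of single genes differed in shape, although all contrasts share the vehicle arrays. Cyp1a1 had log2 fold changes, from the lowest dose to the highest, of 0.08, -0.01, 0.00, 1.63 and 4.72, so nearly all of the change lay in the upper part of the range. Cyp1a2 had 0.01, 0.05, 0.06, 0.21 and 0.53. The Cyp2b-subfamily probe set had 0.49, 2.07, 2.55, 2.55 and 2.60, and Cyp3a23-3a1 had 0.02, 0.41, 0.58, 0.59 and 0.64. In these genes the values at the 3 highest doses lay close to each other. Mmgt1 followed a like order on its brighter probe set, with 0.17, 0.54, 0.59, 0.63 and 0.66, and Cndp2 had 0.14, 0.36, 0.58, 0.58 and 0.63. Ahr had 0.23, 0.61, 0.59, 0.77 and 0.90, unlike Cyp1a1. Ak4 had -0.04, -0.13, -0.23, -0.19 and -0.35. App, on its probe set with the smallest p, had 0.18, 0.41, 0.63, 0.70 and 0.53, and its difference between 959 and 95.9 mg/kg was -0.17 (95% interval -0.36 to 0.02, adjusted p = 0.977).

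**Figure D4:**
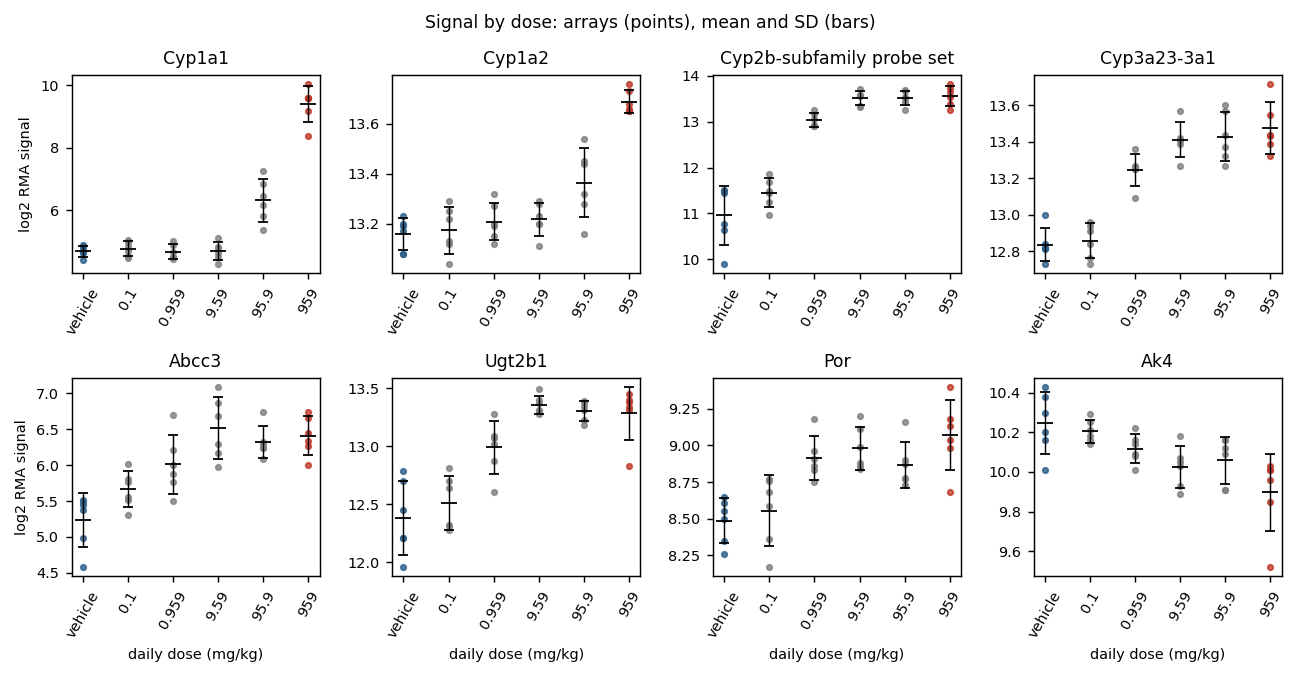
Log2 RMA signal (vertical axes, each with its own range) by daily dose in mg/kg (horizontal axes) for 8 probe sets, with points for the 6 arrays of a group and bars for the mean and SD. Cyp1a1 and Cyp1a2 are highest at 959 mg/kg, while the Cyp2b-subfamily probe set, Cyp3a23-3a1 and Ugt2b1 have similar means at 9.59, 95.9 and 959 mg/kg.

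Beyond detoxification, other lists of liver genes were described by their counts and medians. Of 19 nuclear receptors and partners, 1 rose (Ahr), 0 fell and the median was -0.006. An unadjusted p under 0.05 was reached by 5 of them, 3 lower, against 7.19% of all genes in either direction. On the NRF2 list of antioxidant genes, 1 of 21 rose (Ephx1, shared with the phase I list), 0 fell, 8 had an unadjusted p under 0.05 (all higher), 16 were positive and the median was 0.111. Over all 14217 genes, 1022 had an unadjusted p under 0.05 (7.19%), 643 of them higher and 379 lower, and 51.9% were positive. Targets of PPARA, the receptor for fatty acid oxidation, had 0 of 31 past the threshold by limma, 12 with an unadjusted p under 0.05 (11 of them lower, against 7.19% of all genes in either direction) and a median of -0.130. Their 6 positive values included Cyp4a8 (0.51). Genes of the ATF4 response to amino acid shortage had 0 of 20 past it, 6 with an unadjusted p under 0.05 (all lower, against 7.19% of all genes in either direction), and a median of -0.225. Asns, which makes asparagine, had -0.78 but wide groups, 6.04 to 7.93 at 959 mg/kg and 7.46 to 8.36 in vehicle (adjusted p = 0.439). Aldh1l2, a folate enzyme of mitochondria, had -0.23 with all 6 arrays below every vehicle array, 10.14 to 10.28 at 959 mg/kg against 10.30 to 10.50 in vehicle (adjusted p = 0.368).

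Cell cycle genes had 0 of 33 past the threshold, 12 with an unadjusted p under 0.05 (all higher, against 7.19% of all genes in either direction), and a median of 0.105. Mki67, the proliferation marker, had 0.52 (4.48 to 5.50 at 959 mg/kg, 4.30 to 5.04 in vehicle, adjusted p = 0.636), and Birc5, a regulator of mitosis, had 0.36 (adjusted p = 0.312). Thyroid hormone genes had 0 of 18 past it, 2 with an unadjusted p under 0.05, and a median of 0.004. Of these, Dio1, a deiodinase, had 0.09, Thrsp, a hormone-responsive lipid gene, had 0.29, and Serpina7, which carries thyroid hormone in blood, had -0.82 (adjusted p from 0.683 to 0.931). Cyp7a1, the rate-limiting enzyme of bile acid synthesis, had 0.16 with a wide spread (SD 0.80 at 959 mg/kg and 0.89 in vehicle, n = 6 each). Medians of the lists for cholesterol synthesis (-0.051), fatty acid synthesis (-0.050), bile acids (-0.038), gluconeogenesis (-0.053), p53 (-0.010), the unfolded protein response (0.024) and heat shock (0.047) were near that of all genes. None of their members passed by limma, and each list had between 0 and 3 with an unadjusted p under 0.05. The same held of clock genes (median 0.020, 0 at an unadjusted p under 0.05) and plasma protein genes (-0.015, 0). Of 20 acute phase genes, 0 passed by limma and 5 had an unadjusted p under 0.05 (median -0.035). Interferon genes had a lower median, -0.089, with 19 of 24 negative, where 51.9% of all genes were positive. Of these interferon genes, 0 passed by limma and 0 had an unadjusted p under 0.05. Of 21 genes of the growth hormone axis and male pattern, 1 rose, Cyp2c11, and 2 had an unadjusted p under 0.05 (median -0.057). In phospholipid and methyl metabolism 1 of 18 genes rose, Ptdss2, and 6 had such a p, 4 of them lower (0.046). Among 12 kinases of energy metabolism 1 fell, Ak4, and 3 had such a p (-0.006). Over all genes, 0.169% rose, 0.00703% fell and 7.19% had such a p.

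**Figure D5:**
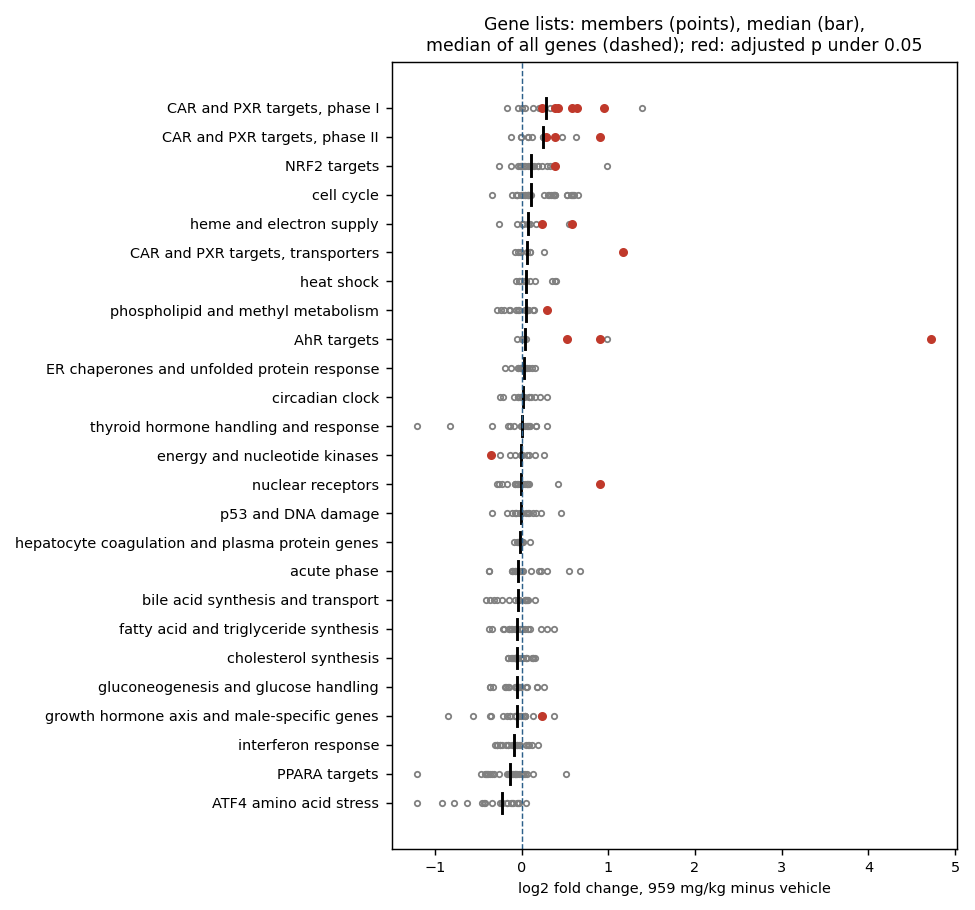
Log2 fold change, 959 mg/kg minus vehicle (horizontal axis), of each measured member of 25 gene lists (points, red where the adjusted p was under 0.05), with the list's median as a bar and the median over 14217 genes (0.004) as a dashed line. Phase I and phase II targets of CAR and PXR have the highest medians, 0.283 and 0.252, and the ATF4 list the lowest, -0.225.

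Markers of other cell types and of liver zones were counted in the same way. Of the cholangiocyte markers, all 7 measured were positive (median 0.230, 3 with an unadjusted p under 0.05, 0 past the threshold by limma), where 51.9% of all genes were positive and 7.19% had such a p. Their mean signal ran from 5.23 to 5.82 on 959 mg/kg arrays and from 5.08 to 5.51 on vehicle arrays. Krt19, a keratin of bile ducts, had 0.59 (5.04 to 6.67 at 959 mg/kg, 4.79 to 6.23 in vehicle, adjusted p = 0.748). Kupffer cell and macrophage markers had a median of -0.180, with 9 of 10 negative, and mean signals of 8.52 to 9.26 at 959 mg/kg and 8.34 to 9.34 in vehicle. Of these markers 0 passed by limma and 0 had an unadjusted p under 0.05. Stellate cell markers had a median of 0.095 (13 of 15 positive, mean signals 6.79 to 7.70 at 959 mg/kg and 6.69 to 7.19 in vehicle), with 0 past the threshold by limma and 2 at an unadjusted p under 0.05. Markers of endothelial cells (-0.055), lymphocytes (-0.121), neutrophils (-0.072), blood (-0.080), pancreas (0.044) and kidney and gut (-0.106) had 0 past the threshold by limma, and 0 at an unadjusted p under 0.05 except 1 of 6 for blood and 2 of 7 for kidney and gut. The kidney and gut median was -0.032 without 959 mg/kg replicate 1, and that of the pancreas list was 0.126 when probe sets under the median level were dropped. Of the 10 pericentral hepatocyte markers 2 rose, Cyp1a2 and Slc1a2 (median 0.086), where 0.169% of all genes did. Of the 12 periportal markers 0 passed and 3 had an unadjusted p under 0.05, all lower (median -0.097). The part of these cells in the results was not tested.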

How the data were processed

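Liver RNA on Affymetrix 3' expression arrays was compared between 6 arrays of 959 mg/kg decaBDE and 6 of vehicle, within a fit of all 36 arrays. The deposited values are log2 RMA signals made by the authors with the affy package (version not given in the sources used here), per the submitters' processing notes. RMA subtracts background, equalises the arrays' distributions and summarises probes, so changes shared by most genes are removed and those of dim probe sets compressed. Values ran from 2.02 to 15 and array medians from 5.12 to 5.21. All sample columns were used. Of 31099 probe sets, 57 controls were left out.

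A linear model with a mean for each of the 6 groups was fitted per probe set (limma 3.58.1, R 4.3.3). Variances were moderated with eBayes, from 30 residual and 5.12 prior degrees of freedom. Contrasts were two-sided, adjusted by Benjamini-Hochberg over 31042 probe sets, with a threshold of 0.05, the false discovery rate of the study's design notes. These name maanova, which was not at hand, so limma stands in. SE and SD are over arrays. The number of arrays limits the precision.

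In the platform annotation, 20826 probe sets carry 1 gene symbol, 436 carry several and 9780 carry none. A gene is its brightest probe set with 1 symbol (14217 genes). Named were up to 20 genes per direction past the threshold, filled to 5 by unadjusted p, up to 5 per direction for 959 against 95.9 mg/kg, from each list the pair with the smallest p, and 22 genes whatever their values. Members and lists were chosen with earlier results of these data known. Promoters are RefSeq GRCr8, and 20 of the 24 higher genes have one there. Cyp1a1, Abcc3, Cyp2c6v1 and Mmgt1 have none in the set used.

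No pairing by replicate number was seen over all probe sets, where deviations of same-numbered 959 mg/kg and vehicle arrays correlated from -0.239 to 0.0873. These correlations cannot exclude a block that acts on some probe sets. In simulated data of the same layout, limma called 16% of 50 probe sets given a log2 shift of 0.25, 92% of those given 0.5 and 100% of those given 1 or 2, and made 5 false calls. The simulated noise was normal and independent between probe sets. More probe sets passed there than the 34 of the real data, so the cutoff on the unadjusted p was looser. The shares found on real arrays may therefore be lower, above all for genes with a wide spread. Alternatives were other normalizations, a level filter, other variance models, array weights, the replicate block, the 12 arrays alone, 1 probe set per gene and leaving out each array.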

Additional observations from a re-analysis of the deposited data

Results flagged for a closer look

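Of 212 groups of 6 arrays checked for the named probe sets, 14 held an array far from the other five by Dixon's criterion, 8 at 959 mg/kg and 6 in vehicle. Chance alone gives about 1 in 20. Among genes of drug metabolism, Nqo1 read 9.98 on 959 mg/kg replicate 1, where the nearest array read 8.22. Ugt2b1 read 12.83 on 959 mg/kg replicate 2, against 13.31 for the nearest. Nr1i2 read 8.98 on 959 mg/kg replicate 4, with the nearest at 8.70, and Nr1i3 read 6.92 on vehicle replicate 5, with the nearest at 7.86.

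Among stress and growth genes, Hspa1a, a heat shock protein, read 7.07 on 959 mg/kg replicate 1, the array that also held the high Nqo1 value, with the nearest at 5.46. It also read 4.90 on vehicle replicate 5, with the nearest at 5.19. Cdkn1a, a cell cycle inhibitor, read 9.0 on 959 mg/kg replicate 4 (nearest 7.87), and Atf6, a sensor of unfolded protein, read 8.74 on 959 mg/kg replicate 6 (nearest 9.26). Asns read 7.46 on vehicle replicate 6 (nearest 8.08).

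Ak4, which fell, read 9.52 on 959 mg/kg replicate 2 (nearest 9.85), and its call ended without that array. Mmgt1 read 10.03 on vehicle replicate 1 (nearest 9.75) on its brighter probe set. Of the cell type markers, Lyz2 of macrophages read 9.48 on 959 mg/kg replicate 2 (nearest 10.68), Itgam of myeloid cells read 4.36 on vehicle replicate 4 (nearest 4.19), and the pancreas gene Cela1 read 9.53 on vehicle replicate 6 (nearest 10.04).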

How the results depend on the processing

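Of the 34 probe sets, 12 passed in every alternative run and 20 whichever array of the compared groups was left out. The count of 34 became 13 in a fit of the 12 arrays alone (13 higher and 0 lower), and between 22 and 38 with 1 array left out (21 to 36 higher, 0 to 4 lower). It was 49 (45 higher) with array weights, 49 (44 higher) when probe sets under the median level were dropped and 43 with a trended robust prior. Without replicate 6 of 0.1 mg/kg, the array that correlated least with the others, the count was 42. It was 39 after a second quantile normalization and 32 after median centring. The count of lower probe sets was 1 with median centring, 4 with the second quantile normalization, the trended robust prior and the array weights, and 5 with the level filter. For 959 against 95.9 mg/kg the count was 1 (1 higher) in the 12 arrays alone and 1 to 2 with 1 array left out. The replicate number as a block gave 29 probe sets against vehicle (27 higher and 2 lower). It ended the calls of Slc1a2, 1 App, 1 Vav2, Gstm1 and the Ugt1a-family probe set. No pairing by replicate number was seen over all probe sets, but a block that acts on some of them was not tested. None of the 6 pairs correlated best with its own number. Genes near 0 that did not pass changed sign. Aldh3a1 gave 0.00497 with median centring and 0.00165 with array weights, where Tiparp gave -0.0105 and Nr1i2 0.00441. With 1 array left out, Aldh3a1 ran from -0.0291 to 0.0362, Tiparp from -0.0718 to 0.166, Nr1i2 from -0.0713 to 0.0161, Cyp7a1 from -0.109 to 0.442, Cyp1b1 from -0.0089 to 0.0771 and the actin difference from -0.0377 to 0.0039. Pemt passed under 7 other settings, 1 of them without 959 mg/kg replicate 6 (adjusted p from 0.013 to 0.0289), Nqo1 under 5 (0.0268 to 0.0398) and Cyp4a3 under 2 (0.0455 and 0.0456). The AhR list's median was 0.901 when members under the median level were dropped, a filter that Cyp1a1 and Ahr cleared only through dosed arrays. The share of higher genes with GCGTG was 35.0% in a window of 300 bases, a setting chosen after seeing the data, as was the actin difference with an array left out. The cause of these changes was not tested. True changes of 0.25 were mostly missed on simulated arrays, so a gene that did not pass may still have changed by that much or more. On the real arrays, estimates as large as 0.98 (Nqo1) and 1.39 (Cyp3a9) did not pass.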

Other observations

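Some large changes did not pass, and their arrays differed widely within a group. These genes were picked after their values were seen. Cdh17, an intestinal and bile duct cadherin, had a log2 fold change of 1.75 at 959 mg/kg, but its vehicle arrays had an SD of 1.91 (n = 6), and 1 of its 6 arrays exceeded the whole vehicle range (adjusted p = 0.723 by limma). Ubd, a ubiquitin-like protein induced by interferon, had -1.50 (SD 1.80 at 959 mg/kg and 1.37 in vehicle, adjusted p = 0.831). Fgf21, a fasting hormone of the liver, had -1.20 (SD 1.56 at 959 mg/kg and 1.86 in vehicle, adjusted p = 0.865), and Onecut1, a hepatocyte transcription factor, had -1.15 (adjusted p = 0.879).

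Others had no overlap between the groups and still did not pass. Inmt, an amine methyltransferase, averaged 8.97 ± 0.60 at 959 mg/kg and 7.70 ± 0.48 in vehicle (SD, n = 6 each), a log2 fold change of 1.27 (adjusted p = 0.269 by limma). Tsku, a secreted protein made by the liver, averaged 9.97 ± 0.25 at 959 mg/kg and 9.07 ± 0.45 in vehicle (0.91, adjusted p = 0.207). Retreg1, a receptor for turnover of the endoplasmic reticulum, had 1.19 with 5 of 6 arrays above every vehicle array (adjusted p = 0.354).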
